A study of Flaveria ramosissima and Flaveria robusta and Flaveria sonorensis with 9 samples.

Results

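Leaf transcript abundance of the C4 species Flaveria trinervia was compared with that of the Type II C3-C4 species Flaveria ramosissima at the control CO2 level. Members were the genes whose mean reached 1 TPM in both species, TPM being a relative measure of transcript abundance with the same nominal total in every library. Of the 29566 rows of the deposited table, 10965 (37.1%) met this rule, each row being treated as 1 gene. Another 8 rows were left out because their 4 IDs each occurred more than once. A further 2935 rows reached 1 TPM in F. trinervia only, 4827 in F. ramosissima only, and 10831 in neither.

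In F. trinervia plants, CO2 is first fixed in mesophyll cells into C4 acids, which are decarboxylated around Rubisco in the bundle sheath. Type II C3-C4 plants recycle photorespiratory CO2 through glycine decarboxylase in the bundle sheath and also run a limited C4 cycle. The comparison therefore sets the C4 type against the C3-C4 type that stands nearest to it by photosynthetic traits.

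The study held newly expanded mature leaves of F. trinervia (C4), F. ramosissima (Type II C3-C4), F. sonorensis (Type I C3-C4) and F. robusta (C3). Each species had 1 sample at low CO2 (labelled 100, for 4 weeks) and 1 at control CO2 (labelled 380), both written in the labels in a unit of light intensity. Plants of all groups grew, per the labels, at a light intensity of 200 µmol m-2 s-1 and 22 °C with 16 h light, 8 h dark and 70% humidity. Each sample had 3 numbered libraries, so that 6 of 24 libraries entered this comparison. The labels name no genotype, plant age or treatment other than CO2 that separates the groups, which does not show that plant ages were equal. Each photosynthetic type is 1 species, so type and species cannot be told apart. Whether the 3 libraries of each sample represent different plants is not stated in any source used, and p-values measure the spread between these libraries only.

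The IDs of the table are not paired with gene names, and 0 of 67 members of the lists for the C4 shuttle, photorespiration, the Calvin-Benson cycle, the photosystems and stress could be matched. Leaf identity could likewise not be checked against marker genes. Each species had its own genome as the mapping reference, and the rule by which a row joins genes of different species is not stated either. Differences between species can therefore include differences between genomes and gene models, whose part was not tested. The depth of the libraries is unknown, since TPM keeps no counts, and no counting interval can be given.

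F. ramosissima library 3 stood apart from libraries 1 and 2. Its rank correlation with them over the members was 0.818 to 0.849, compared with 0.925 between libraries 1 and 2 and 0.957 to 0.970 among the F. trinervia libraries. Relative to the mean of libraries 1 and 2, 2896 members (26.4%) were at least 2-fold lower and 346 (3.16%) at least 2-fold higher in library 3. The rows above 0 in library 3 were mostly those of the other F. ramosissima libraries. The mapping reference can itself set which rows are above 0, so the species of the plant was not tested. Of 3883 rows seen at 1 TPM or more in F. ramosissima at low CO2 and at 0 in all 6 F. trinervia libraries, 93.4% were above 0 in library 3, while of 659 rows of the opposite kind only 2 (0.303%) were. The counts of calls are given below with and without this library.

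The shared and the species-limited rows held different shares of TPM in the libraries of the 2 species. The members took up 87.0%, 87.1% and 87.5% of the fixed TPM total in the F. trinervia libraries, and 74.6%, 75.8% and 78.8% in the F. ramosissima libraries. All rows of a library summed to 91.2% to 92.1% of that total. The members' mean share was 87.2 ± 0.252% in F. trinervia and 76.4 ± 2.15% in F. ramosissima (SD, n = 3 each; 75.2% without library 3), with no overlap between the species. In the low CO2 libraries, which the rule did not use, it was 87.4 ± 0.356% in F. trinervia and 75.2 ± 0.615% in F. ramosissima. The exact permutation test gave p = 0.1 (two-sided), and with 3 libraries in each species no smaller value can be reached. Rows that reached 1 TPM in F. ramosissima only held 0.0363 ± 0.00695% in F. trinervia and 14.8 ± 2.08% in F. ramosissima, a split that the rule for these rows itself sets. At low CO2 they held 0.0471 ± 0.0053% in F. trinervia and 16.9 ± 0.565% in F. ramosissima. The reciprocal rows, at 1 TPM in F. trinervia only, held 4.57 ± 0.0306% in F. trinervia and 0.115 ± 0.0168% in F. ramosissima at low CO2. Both kinds of rows were chosen by species, and the low CO2 libraries share species and mapping reference with the control libraries. These low CO2 splits are therefore a description and no fresh test.

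**Figure D1:**
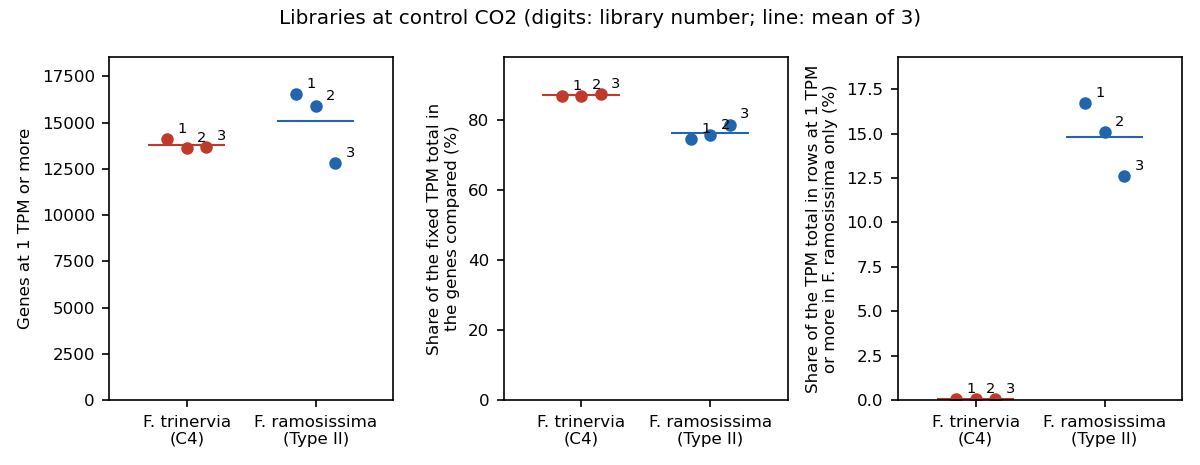
Genes at 1 TPM or more (left), share of the fixed TPM total held by the 10965 genes compared (middle) and share held by rows at 1 TPM or more in F. ramosissima only (right), for each control CO2 library of F. trinervia and F. ramosissima. Points are libraries with their numbers and lines are means of 3 libraries. F. ramosissima library 3 lies below libraries 1 and 2 in the left and right panels and above them in the middle panel.

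The number of genes detected overlapped between the species at control CO2. At 1 TPM or more there were 14125, 13612 and 13704 genes in the F. trinervia libraries, and 16565, 15876 and 12814 in the F. ramosissima libraries. F. ramosissima libraries 1 and 2 lay above all F. trinervia libraries and library 3 below them, so the groups overlapped. The means were 13814 ± 274 in F. trinervia and 15085 ± 1997 in F. ramosissima (SD, n = 3 each; exact permutation p = 0.4), and 16221 in F. ramosissima without library 3. At 10 TPM or more the means were 6144 ± 333 in F. trinervia and 5875 ± 873 in F. ramosissima (exact permutation p = 0.8). At low CO2 the species did not overlap at 1 TPM or more, with 13537, 13445 and 13583 genes in the F. trinervia libraries and 14585, 14567 and 15688 in the F. ramosissima libraries. The low CO2 difference was -1425 genes (exact permutation p = 0.1).

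The concentration of TPM in the most abundant genes also overlapped. Here shares are of the TPM summed over all rows of a library, not of the fixed TPM total. The 100 most abundant genes held 45.7%, 47.4% and 48.7% in the F. trinervia libraries, and 40.7%, 42.9% and 52.9% in the F. ramosissima libraries. The means were 47.3 ± 1.49% in F. trinervia and 45.5 ± 6.51% in F. ramosissima (SD, n = 3 each; exact permutation p = 0.7), and 41.8% in F. ramosissima without library 3. The F. trinervia libraries lay within the range of the F. ramosissima libraries.

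Across the members, more genes were called higher than lower in F. trinervia on the deposited scale, and this excess was absent after median-ratio scaling. On deposited TPM, 4205 genes (38.3%) were higher and 1202 (11%) lower in F. trinervia by limma on log2(TPM + 1), with a Benjamini-Hochberg adjusted p below 0.05 over 10965 genes. The median difference over all members, F. trinervia minus F. ramosissima, was 0.63 on this log2 scale. Median-ratio scaling, which equalizes the typical member gene between libraries, brought this median to 0.02 and gave 2068 genes (18.9%) higher and 2318 (21.1%) lower. The direction of the majority of calls thus depended on the scaling. In whole leaves, fewer cells of a type and less RNA per cell cannot be told apart.

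Without F. ramosissima library 3 the deposited scale gave 4539 genes (41.4%) higher and 1734 (15.8%) lower, with a median difference of 0.46. Median-ratio scaling without that library gave 2814 (25.7%) higher and 2965 (27%) lower. When each library was instead rescaled to a common total over the members, a choice added after the data were examined, 3309 genes were higher and 1374 lower, and the median was 0.48. The spread between libraries was unequal, with a median SD over members of 0.19 (log2) in F. trinervia and 0.48 in F. ramosissima, or 0.28 in F. ramosissima without library 3.

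The calls on both scales were nested. All 2068 genes called higher after median-ratio scaling were among the 4205 called higher on deposited TPM, and 2137 of those 4205 lost the call. All 1202 genes called lower on deposited TPM stayed called lower after scaling, and 1116 more joined them. No gene was called in opposite directions on the 2 scales. Median-ratio scaling divided the F. trinervia libraries by 1.22 to 1.41 and the F. ramosissima libraries by 0.58 to 0.97. It thereby lowered the difference of every gene, so this nesting is largely set by its construction. Requiring a call on both scales, each with and without library 3, left 2021 genes (18.4%) higher and 1149 genes (10.5%) lower in F. trinervia.

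**Figure D2:**
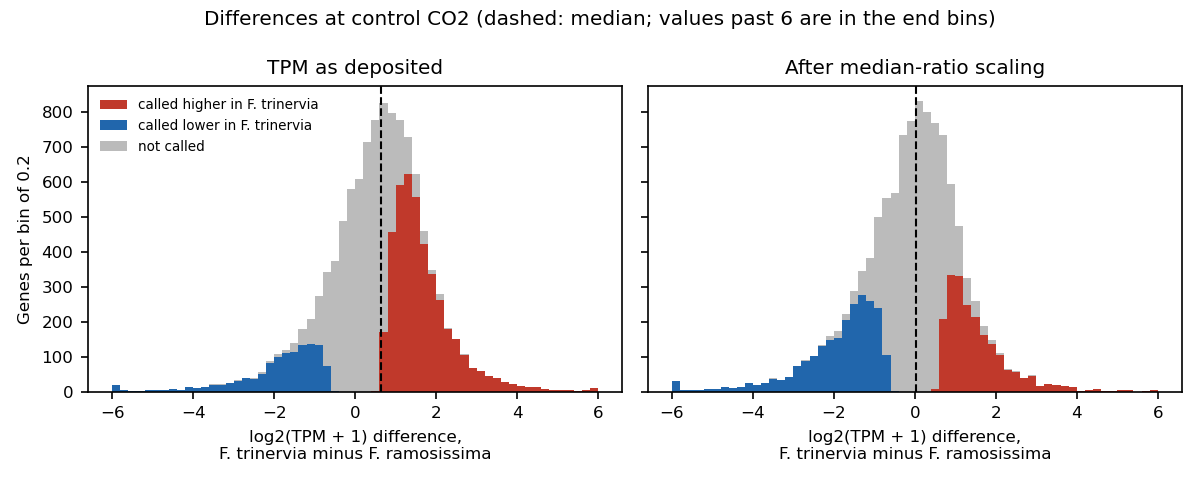
Distribution of the log2(TPM + 1) difference between F. trinervia and F. ramosissima over 10965 genes at control CO2, on deposited TPM (left) and after median-ratio scaling (right). Colours mark genes called higher (red) or lower (blue) in F. trinervia at a limma adjusted p below 0.05, and the dashed line is the median, at 0.63 on the left and 0.02 on the right.

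The differences were often large. On deposited TPM they ran from -10.33 to 7.55 (log2), with the 5th and the 95th percentile at -1.75 and 2.46. A 2-fold or larger difference was found in 4005 genes higher and 1171 lower in F. trinervia, of which 3576 and 995 were called. Without F. ramosissima library 3 these were 3195 higher and 1352 lower. After median-ratio scaling 1837 genes were at least 2-fold higher, of which 1520 were called, and 2261 were at least 2-fold lower, of which 1970 were called.

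The balance between the directions shifted with the size of the difference. At 4-fold or more, 1064 genes were higher and 417 lower on deposited TPM, against 440 higher and 848 lower after median-ratio scaling. Without library 3, 747 were higher and 461 lower on deposited TPM. At 16-fold or more, 82 were higher and 73 lower on deposited TPM, and 35 higher and 125 lower after median-ratio scaling. Without library 3 the counts at 16-fold or more were 60 higher and 77 lower on deposited TPM, and 37 higher and 114 lower after scaling. More genes were lower than higher at this size under 3 of these 4 settings, the exception being deposited TPM with all libraries.

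In 5300 genes (48.3%) all F. trinervia libraries lay above all F. ramosissima libraries, and in 1549 (14.1%) all lay below. The libraries overlapped in the other 4116 genes. Without F. ramosissima library 3 the counts were 5556 (50.7%) above and 2344 (21.4%) below, though leaving out any library can only raise them. These counts are on deposited TPM and share its shift.

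The share of genes called lower was smallest among the low genes on both scales. The minimum of 1 TPM in both species and the 1 added before the log narrow the differences such genes can show. Scaling moved the median difference from 0.64 to 0.09 under 10 TPM, and from 0.44 to -0.31 at 500 TPM or more. The part of these limits in the shares was not tested. Among the 5425 genes with a mean of the species below 10 TPM, 37.1% were called higher and 6.10% lower in F. trinervia on deposited TPM, and 17.3% higher and 14.9% lower after median-ratio scaling. Of the 4564 genes from 10 to 100 TPM, 40.7% were higher and 13.8% lower, and 21.1% higher and 25.9% lower after scaling. Of the 726 genes from 100 to 500 TPM, 34.4% were higher and 24.2% lower, and 17.9% higher and 34.8% lower after scaling.

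The 250 genes at 500 TPM or more carried 52.4% of the fixed TPM total in F. trinervia and 48.3% in F. ramosissima. Of these, 34.4% were called higher and 25.6% lower on deposited TPM, and 14.4% higher and 31.2% lower after scaling. Their median difference was 0.44 on deposited TPM and -0.31 after scaling. Without F. ramosissima library 3, the share called lower was again smallest under 10 TPM, at 10.5% on deposited TPM and 21.2% after scaling. At 500 TPM or more it was then 28.8% on deposited TPM and 38.0% after scaling.

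**Figure D3:**
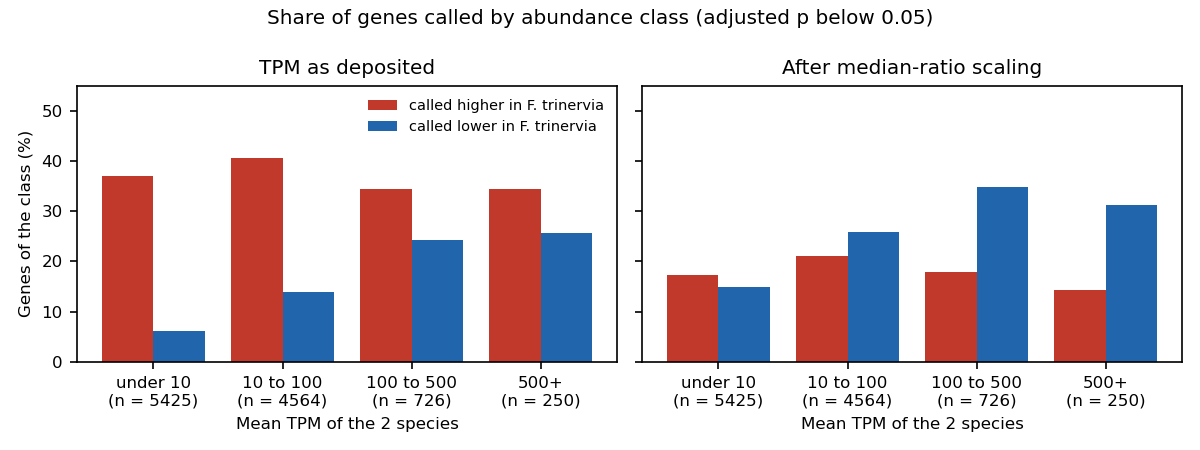
Share of genes called higher (red) and lower (blue) in F. trinervia in 4 classes of abundance, on deposited TPM (left) and after median-ratio scaling (right), with the number of genes of each class below the axis. The share called lower was smallest in the class under 10 TPM on both scales, at 6.10% and 14.9%.

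The most abundant transcripts of the species were partly the same genes. Of the 100 most abundant genes of each species by mean TPM, 57 were shared, and 60 when F. ramosissima library 3 was left out. Of the 500 most abundant, 279 (55.8%) were shared. The most abundant gene was the same in both species, with a mean of 27833 ± 1492 TPM in F. trinervia and 27085 ± 13917 TPM in F. ramosissima (SD, n = 3 each). It did not differ beyond the spread between libraries (limma adjusted p = 0.712), and library 3 alone held 43147 TPM of it, against a mean of 19054 TPM in libraries 1 and 2.

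The top ranks were not symmetric between the species. Of the 100 most abundant genes of F. trinervia, 96 were members, and 25 of these were called higher and 12 lower in F. trinervia on both scales. Of the 100 most abundant genes of F. ramosissima, 89 were members, and 1 was called higher and 38 lower in F. trinervia on both scales. Each list was ranked on the levels that were then compared, so these counts describe the lists and are no test of them. The remaining 4 and 11 genes were under 1 TPM in the other species.

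Of the 10 most abundant genes of F. trinervia, those at the second and the third rank were called higher there on both scales. The gene at the third rank had 16605 ± 1742 TPM in F. trinervia and 710 ± 158 TPM in F. ramosissima, where it held rank 192. Its difference was 4.56 on deposited TPM (limma adjusted p = 3.61e-05) and 3.81 after median-ratio scaling (adjusted p = 0.000216). Of the 10 most abundant genes of F. ramosissima, 6 were called lower in F. trinervia on both scales, with differences on deposited TPM from -2.02 to -0.66.

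By the rule for named genes, 4 IDs are given, being the largest difference and the largest TPM difference in each direction among called genes whose libraries did not overlap. Since the IDs are not paired with names, nothing can be said of their functions. All 4 were also called without library 3. Where near-identical copies of a gene exist, the estimation of TPM can divide reads among them, and the value of a single copy is then uncertain.

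Gene00219 had 606, 755 and 691 TPM in the F. trinervia libraries, and 2.72, 3.53 and 1.86 TPM in the F. ramosissima libraries. It was thus among the abundant transcripts of F. trinervia leaves and near the lower limit of the rule in F. ramosissima. The difference was 7.55 ± 0.26 (log2, SE; limma adjusted p = 1.8e-05), and 6.90 after median-ratio scaling (adjusted p = 3.05e-05). At low CO2 it had 896, 844 and 714 TPM in F. trinervia, against 1.56, 1.14 and 1.05 TPM in F. ramosissima. In the other species at control CO2 its mean was 8.80 ± 2.31 TPM in F. sonorensis and 11.5 ± 1.11 TPM in F. robusta. The F. trinervia level therefore stood alone, and F. ramosissima had the lowest level of the 4 species.

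Gene00137, the second most abundant transcript of F. trinervia, had 20417, 21486 and 24578 TPM in the F. trinervia libraries, and 1772, 2101 and 2044 TPM in the F. ramosissima libraries. The F. trinervia mean was 11.2 times the F. ramosissima mean. On the log2 scale the difference was 3.49 ± 0.17 (SE; limma adjusted p = 3.75e-05), and 2.74 after median-ratio scaling (adjusted p = 0.00116).

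The levels of Gene00137 followed the order of the photosynthetic types. Its control CO2 mean was 22160 ± 2161 TPM in F. trinervia, 1973 ± 176 TPM in F. ramosissima, 530.3 ± 204 TPM in F. sonorensis and 175 ± 136 TPM in F. robusta (SD, n = 3 each). F. sonorensis and F. robusta were neighbours whose libraries did not overlap, though their closest libraries had 378 and 315 TPM. At low CO2 the means were 31831 ± 3754 TPM in F. trinervia, 4775 ± 336 TPM in F. ramosissima, 935 ± 174 TPM in F. sonorensis and 383 ± 195 TPM in F. robusta, in the same order.

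Gene07052 had 1.01, 2.83 and 0.40 TPM in the F. trinervia libraries, and 3407, 3001 and 2228 TPM in the F. ramosissima libraries. The F. trinervia mean, 1.41 ± 1.26 TPM, lay just above the minimum of 1 TPM. The difference was -10.33 ± 0.40 (log2, SE; limma adjusted p = 1.96e-05), and -10.87 after median-ratio scaling (adjusted p = 2.61e-05). Low CO2 gave 0.00, 0.48 and 1.54 TPM in F. trinervia, against 3493, 3444 and 3805 TPM in F. ramosissima.

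In the 4 species measured, Gene07052 was either abundant or near 0. At control CO2 it had 5889 ± 383 TPM in F. sonorensis, so that both C3-C4 species held it among their abundant transcripts. The mean in F. robusta was 0.323 ± 0.293 TPM, with 1 library listed at 0, which puts the C3 and the C4 species together at the low end. Whether the row is placed on the same gene in all 4 genomes was not tested.

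Gene04829, the second most abundant transcript of F. ramosissima, had 3805, 3591 and 3209 TPM in the F. trinervia libraries, and 13006, 19968 and 11275 TPM in the F. ramosissima libraries. The difference was -2.02 ± 0.24 (log2, SE; limma adjusted p = 0.000893), and -2.77 after median-ratio scaling (adjusted p = 0.000879). At low CO2 the F. trinervia libraries had 1149, 1940 and 1715 TPM, and the F. ramosissima libraries 14941, 19412 and 16074 TPM. The other species were near F. ramosissima at control CO2, with 17666 ± 1148 TPM in F. sonorensis and 15828 ± 679 TPM in F. robusta, so that the C4 species was the low one of the 4.

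**Figure D4:**
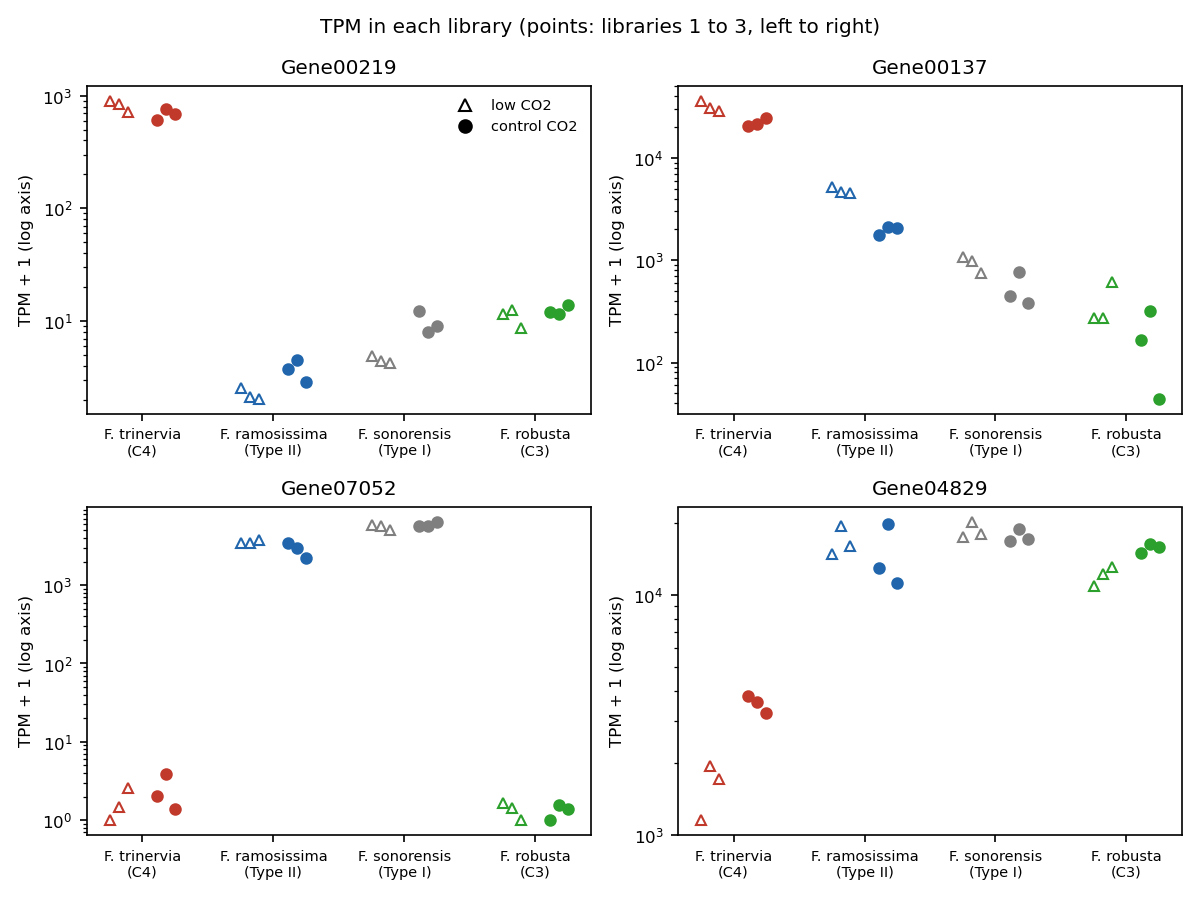
TPM + 1 on a log axis for Gene00219, Gene00137, Gene07052 and Gene04829 in every library of F. trinervia, F. ramosissima, F. sonorensis and F. robusta, with low CO2 as open triangles and control CO2 as filled circles. Gene00219 is high in F. trinervia alone, Gene00137 descends over the 4 species, Gene07052 is high in both C3-C4 species, and Gene04829 is low in F. trinervia alone.

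The levels of the called genes in the other species were then described, without a test, since such comparisons would share libraries. For genes called higher in F. trinervia on both scales and at least 2-fold on each (n = 1520), the median level at control CO2 was 22.4 TPM in F. trinervia, 3.59 TPM in F. ramosissima, 17.1 TPM in F. sonorensis and 9.57 TPM in F. robusta. Over all members the median was 11.3 TPM in F. trinervia, 7.11 TPM in F. ramosissima, 14.8 TPM in F. sonorensis and 8.91 TPM in F. robusta. F. trinervia was the highest of the 4 species in 56.1% of this set, against 22.8% of all members. F. ramosissima was the lowest in 69.5% of it, against 43.2% of all members. After median-ratio scaling over the 4 species F. trinervia was highest in 69.7% (24.8% of all members) and F. ramosissima lowest in 56.6% (22.5%).

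For genes called lower in F. trinervia by the same criteria (n = 995), the medians were 7.75 TPM in F. trinervia, 40.9 TPM in F. ramosissima, 15.1 TPM in F. sonorensis and 12.6 TPM in F. robusta. F. ramosissima was the highest of the 4 species in 66.2% of this set, against 13.7% of all members, and F. trinervia the lowest in 45.9%, against 13.5%. After median-ratio scaling F. ramosissima was highest in 87.4% (34.1% of all members) and F. trinervia lowest in 44.0% (19.5%). Without F. ramosissima library 3 that species was highest in 66.4% of the lower set on deposited TPM and 84.3% after scaling, and lowest in 66.3% and 54.5% of the higher set. Selection for a difference between F. trinervia and F. ramosissima itself raises these shares.

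A pattern like that of Gene00137, ascending from F. robusta over F. sonorensis and F. ramosissima to F. trinervia, was counted over the members. It was found in 250 of all members (2.28%) on deposited TPM and in 437 (3.99%) after median-ratio scaling. Among the 1520 genes higher in F. trinervia it was found in 25 (1.64%) and 74 (4.87%) on these scales. The descending pattern was found in 35 (3.52%) and 13 (1.31%) of the 995 genes lower in F. trinervia, and in 220 (2.01%) and 368 (3.36%) of all members. These are orders of means alone, and neighbours in them need not differ beyond their spread. A fixed order also arises in some genes when means are ordered at random, and the shares were not tested against that. The 1520 and the 995 genes were chosen for the direction between F. trinervia and F. ramosissima that the counted order needs. Not all members have that direction, so the shares of all members are not a like background. No enrichment or depletion can be read from these shares.

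The extreme genes were of both kinds. On both scales 35 genes were called higher in F. trinervia by at least 16-fold, with a median of 191 TPM in F. trinervia and 3.87 TPM in F. ramosissima. Another 73 were called lower by at least 16-fold, with a median of 3.07 TPM in F. trinervia and 201 TPM in F. ramosissima. Of the higher genes 6, and of the lower genes 11, had a mean of the species of 500 TPM or more.

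For the genes that differed at least 4-fold, the other species were placed nearer to one or the other by their log2 level after median-ratio scaling. Of the 428 genes at least 4-fold higher in F. trinervia on both scales, F. sonorensis was nearer to F. trinervia in 167 (39.0%) and F. robusta also in 167 (39.0%). Of the 399 genes at least 4-fold lower, F. sonorensis was nearer to F. trinervia in 308 (77.2%) and F. robusta in 268 (67.2%). Over all members these shares were 57.9% for F. sonorensis and 54.7% for F. robusta. In the 4-fold lower genes, the levels of the remaining species thus lay mostly on the side of F. trinervia, and in the 4-fold higher genes mostly on the side of F. ramosissima. In both sets this is the side of the lower level, where rows near 0 also fall. On deposited TPM, F. sonorensis was under 1 TPM in 245 and F. robusta in 186 of the 995 lower genes above. In the 1520 higher genes these counts were 219 and 183, and in all 10965 members 1541 and 1424. Whether such rows have a counterpart gene in those genomes was not tested.

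The species difference was next examined in the low CO2 libraries, which the choice of genes did not use. On deposited TPM of the same 10965 genes, 6099 (55.6%) were called higher and 1745 (15.9%) called lower in F. trinervia, with a median difference of 0.69. Median-ratio scaling gave 3380 (30.8%) higher and 3517 (32.1%) lower. The low CO2 libraries had a median SD over members of 0.17 (log2) in F. trinervia and 0.23 in F. ramosissima, and the F. ramosissima libraries there had rank correlations of 0.940 to 0.976 with each other.

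Most species differences called at control CO2 were called again at low CO2. Of the 4205 genes higher on deposited TPM, 4005 (95.2%) were called higher at low CO2, and of the 1202 lower genes 1016 (84.5%) were called lower. After median-ratio scaling 1826 of 2068 (88.3%) were called higher again, and 2127 of 2318 (91.8%) lower again. The background shares of such calls are those given above for low CO2. Over the 2021 genes higher under all 4 settings, the median difference after median-ratio scaling was 1.34 at control CO2 and 1.19 at low CO2. Over the 1149 lower genes these medians were -2.27 at control CO2 and -2.20 at low CO2.

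**Figure D5:**
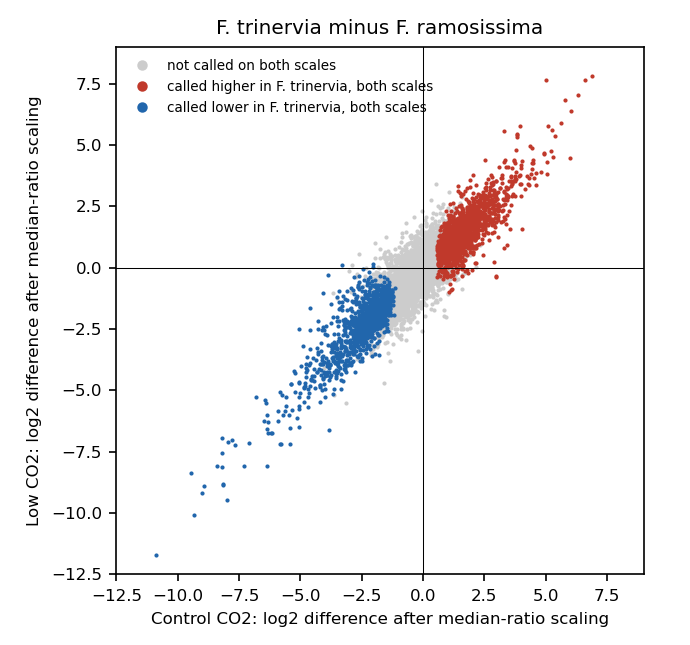
Log2 difference between F. trinervia and F. ramosissima after median-ratio scaling at control CO2 (x axis) and low CO2 (y axis), with 1 point per gene over 10965 genes. Genes called on both scales at control CO2 are red (2068 higher in F. trinervia) or blue (1202 lower), and of these 1826 and 1016 were called in the same direction on both scales at low CO2.

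Most, though not all, of the large differences were of that size at low CO2. Of the 428 genes at least 4-fold higher on both scales, 294 (68.7%) were at least 4-fold higher on both scales at low CO2, against 3.84% of all members. Of the 399 at least 4-fold lower, 276 (69.2%) were again, against 3.56% of all members. At 16-fold or more, 23 of 35 higher genes (65.7%) and 58 of 73 lower genes (79.5%) kept this size, against 0.374% and 0.693% of all members.

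The change of the species difference with CO2 was tested directly in 12 libraries. By limma 0 of 10965 genes (0%) were called on deposited TPM, where 960 genes had an unadjusted p below 0.05 and the smallest adjusted p was 0.0872. The median residual SD was 0.34 (log2) in this test and 0.26 without F. ramosissima control library 3. A count of 0 does not show that the species difference was the same at both CO2 levels. The test called 11 genes without F. ramosissima control library 3, 10 without F. ramosissima control library 2, 66 with weights for the quality of each library and 1 after quantile normalization. Median-ratio scaling also gave 0 calls (1028 genes at an unadjusted p below 0.05), and 15 when library 3 was left out as well, a combination added after the data were examined. The 4 named genes were not called in this test, with adjusted p-values from 0.246 to 0.708.

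On deposited TPM 4 genes were called in opposite directions at control and low CO2. After median-ratio scaling 4 other genes were called in opposite directions, so none was on both scales. The adjusted p in the limma test of the change with CO2 was 0.185 to 0.293 for the genes of the deposited scale and 0.143 to 0.219 for those after scaling. The deposited-scale gene with the smallest such p had 8.79, 4.09 and 7.73 TPM in F. trinervia and 2.78, 2.38 and 1.35 TPM in F. ramosissima at control CO2. At low CO2 it had 1.23, 0.44 and 0.94 TPM in F. trinervia and 1.89, 1.83 and 2.98 TPM in F. ramosissima. It was picked after its values were seen, and its levels were low in all libraries.

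Near the threshold of the rule, 276 members had a lower group mean between 1 and 1.1 TPM, and 264 rows outside the rule had one between 0.9 and 1 TPM. Without F. ramosissima library 3, 59 members would fall under 1 TPM in that species and 356 other rows would reach it. Applying the rule and the test without that library, a choice added after the data were examined, called 4746 of 11262 genes higher and 1743 lower in F. trinervia on deposited TPM.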

How the data were processed

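Leaf mRNA was sequenced in paired-end reads of 150 bp. Per the study's methods the authors aligned reads to the genome of each species with STAR 2.7 and estimated abundance with RSEM 1.3.3, and the deposited table gives TPM per gene and library. The submitters' processing notes also name edgeR, with no stated role. The methods describe growth conditions that differ from those of the labels, which are used here, and leave out the low CO2 treatment. All 24 columns were mapped to samples by name (columns not used: 0).

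Rows with a repeated ID were removed and genes whose mean reached 1 TPM in both species were kept. log2(TPM + 1) was tested in limma 3.58.1 under R 4.3.3 (two-sided, eBayes with trend), with Benjamini-Hochberg adjustment over all genes tested and a threshold of 0.05. SE is limma's moderated standard error. Median-ratio factors were computed over the genes tested. Single values per library were compared by exact permutation tests (scipy 1.17.1). Named genes were called genes with at least 10 TPM in the higher group and libraries that did not overlap, taking in each direction the largest log2 difference and the largest TPM difference. The members and lists were chosen with earlier results of these data known. The main fits at control CO2, at low CO2 and for the change with CO2 were checked on simulated data. These gave all libraries of a gene the same spread, so the unequal spread of the species was not covered. Tests of the gene lists were not run, since no ID matched, and the long-read F. ramosissima library of several organs was not used here. Alternatives covered scaling, the pseudocount (0.1), the minimum TPM (10 or none), library weights, the variance trend, the replicate block, the spread from all 24 libraries and leaving out each library.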

Additional observations from a re-analysis of the deposited data

How the results depend on the processing

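At control CO2 the total of 5407 calls stayed within 1.5 times of its value under 14 of 18 alternatives. It was 1628 (1117 higher and 511 lower) with a minimum mean of 10 TPM, which tested 3796 genes, and 13778 (7686 higher and 6092 lower) over the 26202 genes left without a filter. Quantile normalization gave 2587 higher and 2286 lower, beside 2068 and 2318 after median-ratio scaling. With the spread from all 24 libraries 1822 genes were lower, and 2965 were lower without F. ramosissima library 3 after median-ratio scaling. Leaving out each library gave 3434 to 6273 calls, 2593 to 4539 higher and 761 to 1734 lower. Calls fell to 3491 without F. trinervia library 1 and to 3434 without F. trinervia library 3, against 5143 to 6273 without an F. ramosissima library, and 762 genes were lower without F. trinervia library 2 (761 without library 3). At low CO2 the 7844 calls became 2601 (1798 higher and 803 lower) with a minimum of 10 TPM and 17736 (9712 and 8024) without a filter. Median-ratio scaling gave 3380 higher and 3517 lower there, and quantile normalization 3702 and 3194. Leaving out each low CO2 library gave 7045 to 8154 calls, 5520 to 6459 higher and 1525 to 1702 lower. The change of the species difference with CO2 was called in 129 genes without a filter, 66 with library weights, 15 without F. ramosissima library 3 after median-ratio scaling, 1 after quantile normalization, and 0 to 11 when leaving out each library. Where a cause is not given by the construction of an alternative, the cause was not tested.

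The difference in genes at 1 TPM or more (F. trinervia minus F. ramosissima, -1271) was 269 at 10 TPM and ran from -2407 to -531 when leaving out each library. The difference in the share of the 100 most abundant genes (1.79 points) was -0.18 points for the 10 most abundant genes, -0.60 without F. ramosissima library 1, and ran from -0.60 to 5.50 over the libraries left out. The 4 named genes kept their sign and call under all 17 or 18 alternatives, signs that the choice of genes without overlap largely fixes. Their differences when leaving out each library were 7.38 to 7.71 for Gene00219, 3.41 to 3.55 for Gene00137, -10.72 to -10.00 for Gene07052 and -2.19 to -1.78 for Gene04829.

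The numbers were not taken to pair the libraries, since the labels do not say so and r between deviations of same-numbered libraries was not over 0.1 for every pair. It was 0.21, 0.28 and 0.03 at control CO2, and 0.13, 0.09 and 0.10 at low CO2. Each F. trinervia library correlated best with the F. ramosissima library of its own number, except library 3 at control CO2, which is a hint from the data and not from the design. The replicate block gave 4365 higher and 1255 lower calls at control CO2 and 0 calls for the change with CO2. Depth is unknown, so differences of genes near 1 TPM are the least certain.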

Other observations

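The rows outside the rule differed in kind between the species. Of the 2935 rows that reached 1 TPM in F. trinervia only, 704 were listed at 0 in all 3 F. ramosissima control libraries. Of the 4827 rows that reached 1 TPM in F. ramosissima only, 4079 were listed at 0 in all 3 F. trinervia control libraries. The rows of F. trinervia only had a median of 2.43 TPM there, 49 of them reached 100 TPM, and the highest had 6511 TPM. Those of F. ramosissima only had a median of 4.48 TPM there, 262 of them reached 100 TPM, and the highest had 7317 TPM. At low CO2, 2209 (75.3%) of the F. trinervia rows and 4163 (86.2%) of the F. ramosissima rows were again at 1 TPM or more in that species only. How many of these rows have a counterpart gene in the other genome was not tested.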
